A study of Mus musculus with 13 samples.

Results

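Chemically induced pluripotent stem cells (CiPSC) are made from fibroblasts with small molecules in place of introduced factors, and they are compared here with embryonic stem cells (ESC) gene by gene. The comparison used CiPSC lines 6 and 11 against 1 library of the R1 ESC line, called R1 2 here after its label (ESC replicate 4). A gene was kept when both lines lay on the same side of R1 2 by at least 1 unit of log2(RPKM + 1) and the highest of the 3 values was at least 2 RPKM (reads per kilobase of a gene's length, corrected for sequencing depth). Of 15176 genes, 159 met the rule: 77 were higher in both lines and 82 were lower in both lines.

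The study sequenced total RNA from 13 mouse libraries in 6 groups. Both CiPSC lines carry the strain label C57xICR and the chemical condition VC6TFMB+Z, whose letters the labels do not spell out, and each line is 1 library. The R1 ESC line carries the strain label 129 and had no chemical treatment. Besides R1 2, ESC replicate 3 is labelled R1. ESC replicates 1 and 2 are labelled ESCs1 and ESCs2, which names no line, and their strain is not given here. Mouse embryonic fibroblasts (MEF, n = 3, C57xICR, untreated) were the starting cell type. The other groups, all labelled C57xICR, are named for an Oct4-GFP reporter: GFP-negative cells (n = 2, condition VC6TF), GFP-positive clusters and GFP-positive colonies (1 library each, condition VC6TF+Z). They were picked from the treated cells, and only the colonies are described below. CiPSC and ESC grew on feeder layers of MEF whose division had been stopped with mitomycin C, so RNA of feeder cells could enter either. Nothing in the labels says that the replicates of a group came from separate cultures, so p-values measure only the spread between these libraries. Strain, origin and treatment change together between CiPSC and R1 2 and cannot be told apart. Strain label and cell type likewise change together between ESC replicate 3 and MEF.

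Embryonic stem cells hold a network of transcription factors around Pou5f1 (Oct4), Sox2 and Nanog that keeps them able to form all tissues. Cultures of such cells are mixed. At any time a few cells pass through a state that resembles the embryo at its first cleavage and transcribe genes such as Zscan4. Fibroblasts instead make collagen-rich matrix and, under TGF-beta, contractile actin filaments. Genes active in germ cells, many of them on the X chromosome, are kept silent in most tissues by DNA methylation and are partly active in ESC.

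The 3 libraries of the comparison hold RPKM per kilobase of exon, whereas the other 10 hold RPKM per kilobase of gene span, introns included, and levels are set side by side across those scales below only after gene lengths are divided out. The values of the 3 libraries keep whole-read steps, from which depths of 102.21 M (CiPSC 6), 86.822 M (CiPSC 11) and 146.417 M reads (R1 2) were estimated, and reads per gene are estimates from the same steps. No gene was listed at 0 in any of the 3 libraries, so a gene without reads in 1 of them has no value here. ESC replicate 3, MEF replicate 3 and the GFP-positive colonies write 0.001 where the other gene-span libraries write 0. ESC replicates 1 to 3, all on the gene-span scale, spanned 1 log2 unit or more for 40 of the 77 higher genes and 44 of the 82 lower genes, against 16.9% of all genes.

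The 3 libraries had the profile of pluripotent cells. Pou5f1 was 246 RPKM in CiPSC 6, 258 in CiPSC 11 and 239 in R1 2, and the values for Sox2 were 38.1, 39.8 and 43.8. Nanog was 112, 98.5 and 87.8 RPKM, and Sall4, another regulator of this network, was 30.6, 32.3 and 29.4. None of these 4 genes met the rule. Summed over 9 pluripotency markers the levels were 1436, 1429 and 1253 RPKM. Of 10 fibroblast markers 8 were in the table, and their sum was 2.92, 1.17 and 23.9 RPKM. Without Col1a1 and Acta2, which met the rule themselves, it was 0.982, 0.675 and 5.02, so R1 2 held more of this RNA than either line in both sums. Fewer cells of a type and less RNA per cell cannot be told apart in such bulk libraries.

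Many genes passed the minimum of 2 RPKM only where they are high: 50 of the 77 higher genes reached it in the lines alone and 47 of the 82 lower genes in R1 2 alone. A list's count among genes at 2 RPKM is therefore partly set by the rule, and counts over all genes of a list in the table are given beside it. Over all 15176 genes both lines lay above R1 2 in 47.7% and below it in 39.9%.

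The genes that met the rule made up 0.507% (higher) and 0.54% (lower) of all genes. Since the rule chose them on these 3 libraries, their differences from R1 2 are a description and carry no test, and R1 2 has no second library on its scale. Differences are given below as the mean over the 2 lines of log2(RPKM + 1), minus R1 2, with the SD of the lines (n = 2). The median difference was 1.41 among the higher genes and −1.52 among the lower genes, and 0.00979 over all genes. Next to these differences the 2 lines lay close to each other, though farther apart than over all genes. Their median distance was 0.135 log2 units in the higher and 0.130 in the lower genes (0.0469 over all genes). With a pseudocount of 0.1 RPKM the rule kept 275 genes, the 159 among them. The lines differed from each other by 0.5 units or more in 5 of the 159 genes, against 14 of all 15176 genes. The 5 were Acta2, Col1a1, S100a6 and Bhlhe40, which were lower in line 11, and Rpl39l, which was higher there.

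At the edge of the rule the values ran on without a gap. Gm9780 (smaller difference of the 2 lines 1.002) and the prolyl hydroxylase Egln3 (1.006) were the last genes inside on the higher side, and Zfc3h1 (0.98) and Dhrs7 (0.97) were the first outside. On the lower side the water channel Aqp3 (−1.002) and Tst (−1.016) lay inside, and Pramef12 (−0.996) and Slc25a4 (−0.995) outside.

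**Figure D1:**
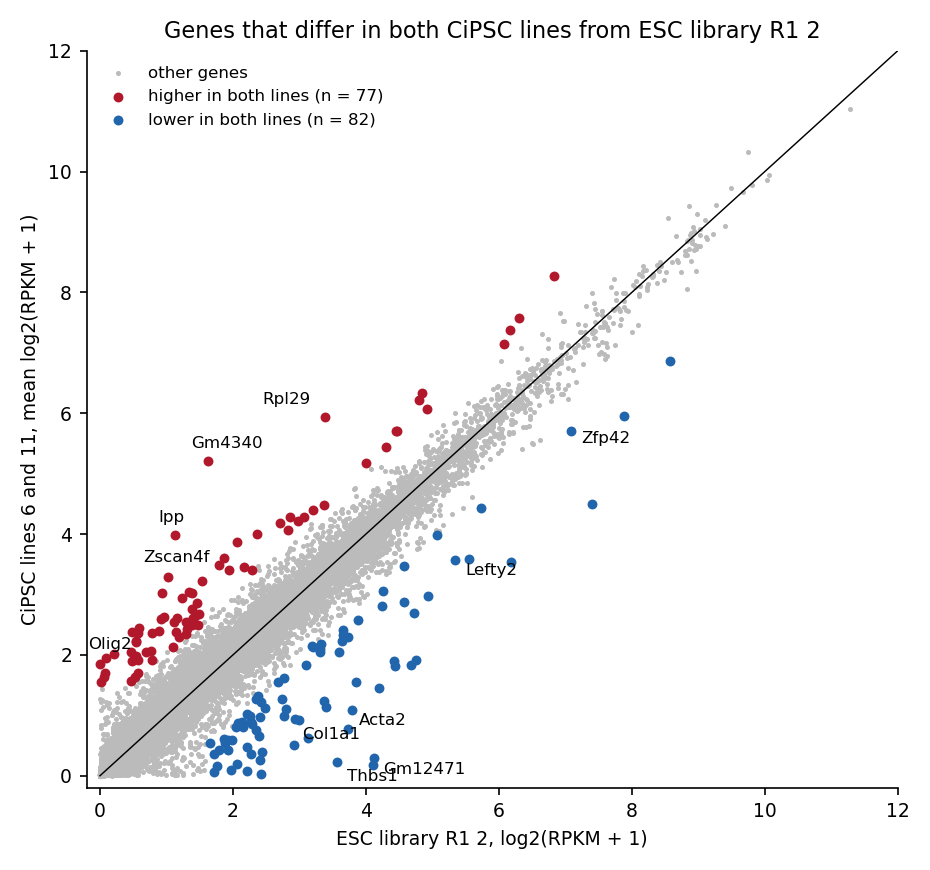
Level of each gene in ESC library R1 2 (x axis, log2(RPKM + 1)) and its mean over CiPSC lines 6 and 11 (y axis, same unit), with the 77 genes higher in both lines in red, the 82 lower genes in blue, the other genes in grey and the line of equal values in black. Gm4340, Ipp and Rpl29 lie farthest above the line, and Gm12471 and Thbs1 lie at the bottom, near 0 in the lines.

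The higher side held 2-cell-like genes, which belong to the short state that resembles the cleaving embryo. Of the 18 genes of this list in the table, 17 lay above R1 2 in both lines (94.4%, median difference of the 18 1.41), and Gm13128 lay below it (0.0449, 0.0726 and 1.295 RPKM, −1.12 ± 0.03). The rule kept 9 of them, the 9 that reached 2 RPKM, but 8 of those reached it in the lines alone, so nothing is read from that count (0.996% of all genes at 2 RPKM were higher by the rule). The list was chosen with earlier results of these data known, so its count is not independent evidence. Gm4340, a member of a multicopy family of this state, was 41.3 RPKM in CiPSC 6, 31.4 in CiPSC 11 and 2.09 in R1 2 (difference 3.58 ± 0.27). Zscan4f was 9.75, 7.95 and 1.03 RPKM and Zscan4c 8.14, 6.32 and 0.915, both zinc-finger proteins linked to telomere upkeep. Line 6 stood above line 11 in each of the 9 kept genes, and R1 2 was far below both.

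Zscan4d was 4.96 RPKM in CiPSC 6, 4.01 in CiPSC 11 and 0.507 in R1 2, from about 1009, 694 and 148 reads (difference 1.86 ± 0.18). Zscan4b was 4.78, 3.66 and 0.389 RPKM and Zscan4e 4.75, 3.57 and 0.485. The last 3 of the 9 belong to other copied families: Gm2022 was 3.89, 3.38 and 0.454 RPKM, and Gm5662 was 4.49, 3.78 and 0.712. BC080695 was 2.22, 1.68 and 0.0065 RPKM, which in R1 2 is about 2 reads, and its ratio of line 6 to R1 2 was 342 with a 95% counting interval of 94.1 to 2829. Summed over the 9 genes the level was 84.3, 65.7 and 6.59 RPKM.

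Reads cannot be split cleanly among these copies. Of the 50-base windows of Zscan4f 93.7% also occur in another gene, against 49.6% for Zscan4d, so the group is better read as a sum than gene by gene. The similarity reaches into the promoters. The following 300 bases from RefSeq (GRCm38.p6, 250 before the start site and 50 after) are shown because these 3 genes were higher together, with the letters TATAAA in capitals. They lie on chromosome 7 at chr7:11005495-11005794 (+ strand), chr7:11166099-11166398 (− strand) and chr7:11397665-11397964 (+ strand).
Zscan4c: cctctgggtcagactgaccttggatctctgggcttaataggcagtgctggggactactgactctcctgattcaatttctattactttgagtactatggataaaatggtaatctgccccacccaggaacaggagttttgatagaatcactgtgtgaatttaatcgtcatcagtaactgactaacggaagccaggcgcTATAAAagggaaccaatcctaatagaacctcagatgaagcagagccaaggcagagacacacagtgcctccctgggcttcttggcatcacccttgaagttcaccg
Zscan4d: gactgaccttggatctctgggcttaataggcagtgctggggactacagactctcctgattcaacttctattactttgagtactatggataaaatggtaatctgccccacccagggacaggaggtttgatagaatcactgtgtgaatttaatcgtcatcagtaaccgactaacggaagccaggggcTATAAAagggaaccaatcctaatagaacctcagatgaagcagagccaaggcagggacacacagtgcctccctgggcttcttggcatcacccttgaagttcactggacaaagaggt
Zscan4f: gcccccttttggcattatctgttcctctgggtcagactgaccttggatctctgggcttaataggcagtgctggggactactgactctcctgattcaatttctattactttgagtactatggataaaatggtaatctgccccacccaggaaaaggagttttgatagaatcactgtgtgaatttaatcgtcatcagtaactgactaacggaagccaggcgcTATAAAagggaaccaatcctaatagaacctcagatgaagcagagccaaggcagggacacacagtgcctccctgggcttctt
Aligned on that motif without gaps, Zscan4c and Zscan4f share 99.3% of bases, Zscan4c and Zscan4d 97.2%, and Zscan4d and Zscan4f 97.4%. The motif begins 54, 65 and 31 bases before the annotated start sites of Zscan4c, Zscan4d and Zscan4f. On either strand TATAAA was found in 7 of the 58 higher genes with a promoter in the table, in 15 of 59 lower genes and in 13.6% of all 32851 windows, so the motif itself is common.

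The gene-span libraries, which the rule did not use, show where else these genes were on. Gm4340 was 14.2, 7.98 and 17.1 RPKM in ESC replicates 1 to 3, at 0, 0 and 0.001 in MEF replicates 1 to 3, and 6.12 in the GFP-positive colonies. Of the 9 genes 6 rose in ESC against MEF in a linear model over all genes (limma; called at adjusted p under 0.05 and a log2 change of 1 or more), a call that 7.95% of the 10647 tested genes received in that direction. The changes were 3.76 ± 0.28 (SE) for Gm4340 (limma adjusted p = 5.76e-05) and 1.76 ± 0.17 for Zscan4d (limma adjusted p = 0.000255). Of the 13 tested genes of the whole list the same 6 were called. All 13, kept or not, were higher in ESC than in MEF both in replicates 1 and 2 and in replicate 3. Nothing about the kept genes is read from these calls. With gene lengths divided out, both lines lay above all 4 ESC libraries for Gm4340, Gm2022, Gm5662 and BC080695, whereas at least 1 line lay within their range for each of the 5 Zscan4 genes. For Zscan4c and Zscan4f line 6 alone exceeded all 4.

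**Figure D2:**
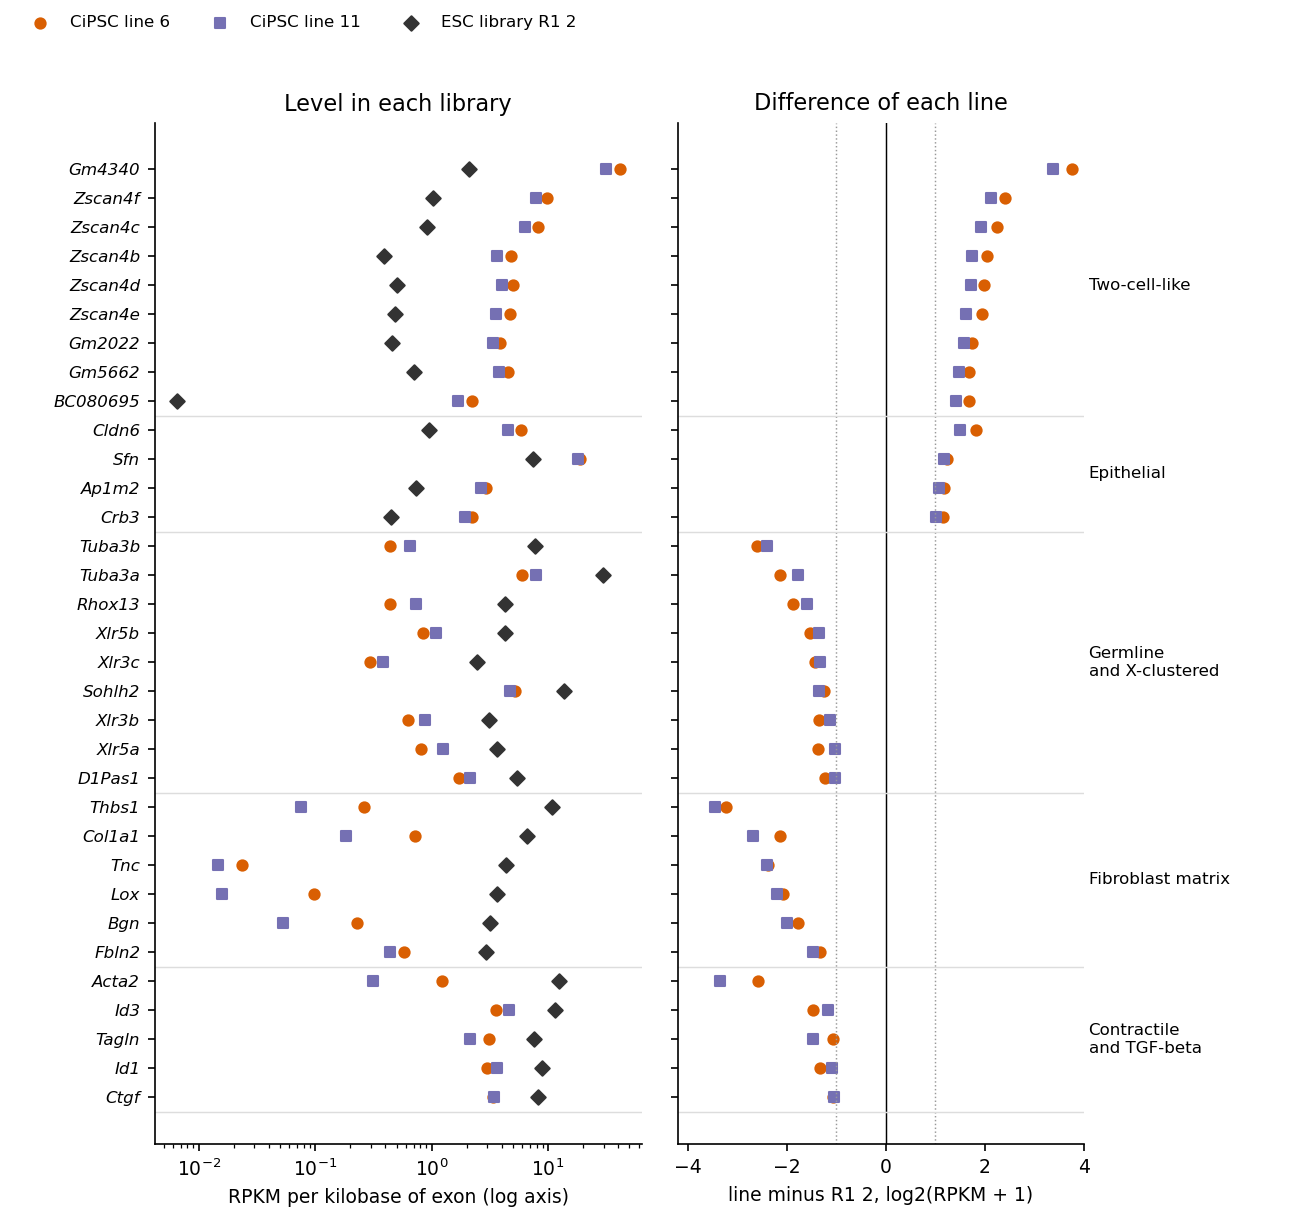
Left, level of genes of 5 groups of lists in CiPSC line 6 (orange circles), CiPSC line 11 (purple squares) and ESC library R1 2 (black diamonds), in RPKM per kilobase of exon on a log axis. Right, difference of each line from R1 2 in log2(RPKM + 1), with dotted lines at the rule's threshold of 1; the lines sit together on the right for 2-cell-like and epithelial genes and on the left for the others, and BC080695, Tnc and Lox reach the lowest levels.

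Ipp, which encodes a kelch-repeat protein that binds actin, had the second largest difference on the higher side. It was 15.2 RPKM in CiPSC 6, 14.5 in CiPSC 11 and 1.19 in R1 2, from about 3296, 2669 and 370 reads (difference 2.85 ± 0.05). The lines nearly coincided, and none of its 50-base windows is shared with another gene. Line 6 was 12.8 times R1 2 by reads (95% counting interval 11.5 to 14.3). In the gene-span libraries Ipp was low in both cell types, at 0.181, 0.0511 and 0.283 RPKM in ESC replicates 1 to 3 and 0.121, 0.231 and 0.200 in MEF, with overlapping ranges, and was 1.24 in the colonies. With lengths divided out both lines exceeded all 4 ESC libraries.

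Dnmt3l, the partner without catalytic activity that guides de novo DNA methyltransferases, was proposed as a marker of the comparison but did not meet the rule. It was 28.5 RPKM in CiPSC 6, 37.5 in CiPSC 11 and 15.96 in R1 2, and line 6 fell short of the threshold (differences 0.80 and 1.18). None of the 11 DNA methylation genes at 2 RPKM met the rule. In both lines the methyltransferase Dnmt3b (16.4, 19.9 and 10.1 RPKM) lay above R1 2 and Dnmt3a (3.44, 3.997 and 4.79) below it.

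The lower side held genes of fibroblast matrix and contraction. Of 36 matrix genes in the table, 31 lay below R1 2 in both lines (86.1%, median difference −0.39), and of 27 contractile and TGF-beta response genes 23 did (85.2%, median −0.32). The rule kept 6 of the 11 matrix genes at 2 RPKM and 6 of the 18 contractile genes, all as lower (1.06% of all genes at 2 RPKM). All 6 matrix genes and 2 of the 6 contractile genes reached 2 RPKM in R1 2 alone, so nothing is read from these counts. Thbs1, the matricellular protein thrombospondin that activates TGF-beta, was 0.265 RPKM in CiPSC 6, 0.0754 in CiPSC 11 and 10.8 in R1 2 (difference −3.34 ± 0.17). Smooth muscle actin Acta2 was 1.22, 0.311 and 12.3 RPKM (−2.96 ± 0.54), and the collagen chain Col1a1 was 0.717, 0.183 and 6.58 (−2.41 ± 0.38). In these genes line 11 was lower than line 6, and R1 2 stood far above both.

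The same held for proteins that organise or crosslink the matrix. Tenascin C (Tnc) was at 0.0234 RPKM in CiPSC 6, 0.0146 in CiPSC 11 and 4.34 in R1 2, from about 17, 9 and 4511 reads, and R1 2 was 185 times line 6 by reads (95% counting interval 116 to 318). The collagen crosslinker Lox was 0.0977, 0.016 and 3.62 RPKM, the proteoglycan Bgn 0.229, 0.0530 and 3.16, and the elastic-fibre protein Fbln2 0.575, 0.437 and 2.95. Of the genes that respond to TGF-beta and related signals, the actin-binding Tagln was 3.10, 2.13 and 7.58 RPKM, and Ctgf was 3.39, 3.43 and 8.16. Id1 (2.96, 3.64 and 8.88) and Id3 (3.54, 4.62 and 11.5), inhibitors of helix-loop-helix factors and targets of BMP signals, were also lower. Other matrix genes did not meet the rule, among them fibronectin Fn1 (54.7, 47.2 and 46.8 RPKM), Sparc (30.9, 32.3 and 34.6), the metalloproteinase inhibitor Timp1 (9.37, 9.60 and 11.5) and Fbln1 (4.79, 4.14 and 2.53), which lay above R1 2 in both lines.

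The 12 lower genes of these 2 lists were compared in libraries that the rule did not use. In ESC replicates 1 to 3 Thbs1 was 12.8, 21.3 and 3.45 RPKM and in MEF 759, 703 and 122 (log2 change −5.18 ± 0.79, SE, limma adjusted p = 0.00226). Col1a1 was 5.32, 11.9 and 16.1 in ESC and 338, 292 and 1824 in MEF (−5.66 ± 0.69, limma adjusted p = 0.00078). Acta2 was 5.68, 6.85 and 4.19 in ESC and 171, 171 and 65.2 in MEF (−4.27 ± 0.55, limma adjusted p = 0.00106). MEF lay wholly above ESC replicates 1 to 3 in each of these 3 genes, as in 23 of the 82 lower genes (28.0%) and 17.0% of all genes. Of the 12, 11 fell in ESC against MEF, where 7.97% of tested genes fell, and 10 did without either CiPSC line, when Id3 lost its call. Most genes of the 2 lists fell whether or not the rule kept them, 31 of 35 tested matrix genes and 20 of 26 contractile genes. The fall is thus a trait of the lists, and nothing about the kept genes is read from it. For 9 of the 12 (all but Id1, Id3 and the unmatched Ctgf) both lines lay below all 4 ESC libraries once lengths were divided out.

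Markers of feeder cells moved with this group. Of the 8 fibroblast markers measured, Col1a1 and Acta2 are themselves among the genes the rule kept. Of the other 6, 5 were below R1 2 in both lines (all genes 39.9%), Col1a2 among them at 0.285, 0.0246 and 1.91 RPKM and the periosteal protein Postn at 0.00606, 0.00357 and 0.984. Twist1, a fibroblast transcription factor, was the exception at 0.347, 0.318 and 0.246 RPKM. The part of feeder RNA in the result was not tested. Further surface and secreted proteins of mesenchymal cells, singled out after their values were seen, were Ly6a (Sca-1; 0.105, 0.041 and 2.94 RPKM), the growth factor Csf1 (0.0537, 0.0412 and 2.29) and the annexin Anxa1 (0.351, 0.264 and 4.43). Each of these 3 also fell in ESC against MEF, by 5.68, 3.25 and 2.73 log2 units (limma adjusted p = 1.54e-05 to 0.00801). Not every fibroblast gene went this way: Fstl1, which fell by 3.87 in ESC against MEF, was higher in the lines (15.6, 15.9 and 6.12 RPKM).

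The X chromosome carried 15 of the 80 lower genes whose chromosome is known (18.75%), 1 of 75 higher genes and 3.72% of all genes. Apart from 1700013H16Rik, each of the 15 reached 2 RPKM in R1 2 alone, so nothing is read from this share. Of those 15, 8 belong to clusters of germ-cell genes. From the list of X-clustered germline families, 15 of the 16 genes in the table lay below R1 2 in both lines (93.8%, median −0.70). The rule kept 5 of the 8 at 2 RPKM, all 5 of which reached it in R1 2 alone, so nothing is read from that count. Xlr5b was 0.837 RPKM in CiPSC 6, 1.09 in CiPSC 11 and 4.31 in R1 2, Xlr3c 0.296, 0.385 and 2.47, and Xlr3b 0.622, 0.880 and 3.11, all of a lymphocyte- and germ-cell-linked family. The homeobox gene Rhox13 was 0.437, 0.735 and 4.24 RPKM. Line 11 was the higher line in each of these 4, unlike in the matrix genes.

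The neighbouring ferritin-like genes on the X, Gm14511, Gm14458 and Gm14499, were lower too, with a sum of 1.93, 2.11 and 14.3 RPKM. The largest X-linked difference in a gene free of shared windows was that of 1700013H16Rik (1.31, 2.27 and 17.4 RPKM, −2.75 ± 0.35). The polycomb-like Scml2 (0.279, 0.278 and 3.85) and the ubiquitin protease Usp26 (0.772, 0.736 and 3.44), both known from male germ cells, were lower as well. In ESC against MEF 4 of the 5 X-clustered genes could be tested and 0 passed in limma (adjusted p = 0.203 to 0.360; 0 at an unadjusted p under 0.05). All 4 were higher in ESC both in replicates 1 and 2 and in replicate 3, as were 49.3% of all tested genes (median log2 change of the 4 0.30). So were all 9 tested genes of the X-clustered list, and nothing about the kept genes is read from it. Xlr3b and Xlr5a lay below all 4 ESC libraries with lengths divided out, and Xlr3c, Xlr5b and Rhox13 within their range.

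Of the more general germline list 4 of 23 genes at 2 RPKM were lower (all genes at 2 RPKM 1.06%) and none was higher. Of the 4, 1 reached 2 RPKM in R1 2 alone. The tubulins of testis Tuba3b (0.435, 0.652 and 7.72 RPKM) and Tuba3a (5.99, 7.92 and 29.4) led, with differences of −2.50 ± 0.14 and −1.95 ± 0.25. Sohlh2, a helix-loop-helix factor of early germ cells, was 5.23, 4.73 and 13.7 RPKM, and the helicase D1Pas1 was 1.72, 2.14 and 5.39. Over the 42 germline genes in the table, 25 lay below R1 2 in both lines (59.5%, all genes 39.9%) and 15 above (35.7%, all genes 47.7%). Of the 23 at 2 RPKM, 12 lay below and 9 above. The median was −0.09 in either count, a smaller lean than in the 4 genes. The meiosis genes Stra8 (7.44, 7.29 and 4.14) and Piwil2 (3.06, 3.56 and 1.42), singled out after their values were seen, were above R1 2 without meeting the rule. Tuba3a, Sohlh2 and D1Pas1 rose in ESC against MEF (2.25 ± 0.37, 1.15 ± 0.15 and 2.62 ± 0.65, SE, limma adjusted p = 0.00117 to 0.0208). Of the 28 tested genes of the whole list, 6 were called and 27 were higher in ESC both in replicates 1 and 2 and in replicate 3. Nothing about the kept genes is read from these calls.

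Histone genes formed a block that no list had named. In all, 11 genes of histone H2A, the core histone that pairs with H2B, were lower in both lines, and their sum was 38.9 RPKM in CiPSC 6, 31.3 in CiPSC 11 and 229 in R1 2. Hist1h2ao was 11.8, 9.52 and 71.7 RPKM (−2.65 ± 0.20), Hist1h2ah 2.98, 2.17 and 24.5, Hist1h2ad 3.01, 2.55 and 25.8, Hist1h2an 2.79, 2.29 and 20.6, and Hist1h2ai 2.79, 2.67 and 20.5. Of 16 measured H2A genes, 11 met the rule, where 0.54% of all genes were lower by it. The counts were 0 of 17 H2B, 0 of 9 H3, 0 of 5 H4 and 0 of 6 H1 genes. Summed H2B was 7.96, 7.07 and 10.9 RPKM, and summed H3 4.61, 3.87 and 5.17. Summed H4 was 4.58, 3.67 and 2.45 RPKM, and summed H1 1.69, 1.57 and 3.47. At such sums few histone genes outside H2A could reach the minimum of 2 RPKM, so nothing is read from their absence.

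Histone levels also set apart libraries of the same cell type. In the gene-span libraries the 11 H2A genes summed to 9.90 and 11.0 RPKM in ESC replicates 1 and 2 but 147 in ESC replicate 3, and to 32.4 and 3.53 in MEF replicates 1 and 2 but 92.6 in MEF replicate 3. The colonies were at 97.9. These 3 high libraries are the ones that write 0.001 for 0, and in them H2B was high as well (62.8, 115 and 108 RPKM against 4.52 to 8.42 in the other ESC and MEF). None of the 11 passed ESC against MEF (limma adjusted p = 0.784 to 1, 0 at an unadjusted p under 0.05). Between 38.6 and 93.5% of the windows of each of the 11 are shared with another gene, and the part of read placement was not tested.

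**Figure D3:**
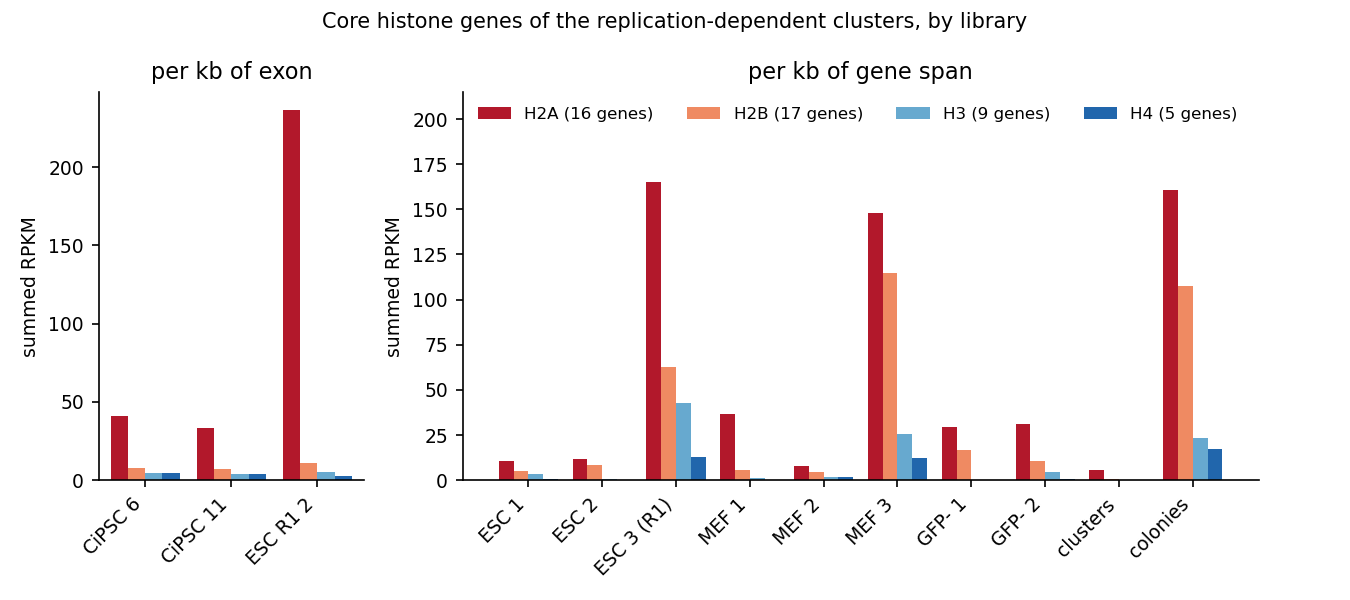
Summed RPKM of the histone H2A, H2B, H3 and H4 genes in each library, per kilobase of exon in CiPSC 6, CiPSC 11 and R1 2 (left) and per kilobase of gene span in the other 10 libraries (right); the bars start at 0 and the 2 panels have different scales. In R1 2 only H2A stands out, while in ESC 3, MEF 3 and the colonies H2B is high as well.

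Copies of ribosomal protein genes gave some of the largest differences in both directions. Gm12471 was 0.0951 RPKM in CiPSC 6, 0.160 in CiPSC 11 and 16.2 in R1 2 (−3.93 ± 0.06), and Gm7429 was 0.281, 0.165 and 16.3 (−3.83 ± 0.10). Gm11942 was 21.6, 21.7 and 168 RPKM. Gm12471 was as uneven among ESC themselves, with 157, 147 and 0.001 RPKM in ESC replicates 1 to 3. On the higher side were the large-subunit protein gene Rpl29 (59.2, 62.0 and 9.47 RPKM, 2.56 ± 0.05) and the small-subunit gene Rps3a (297, 317 and 113). Rpl29 spanned 6.44 to 149 RPKM over ESC replicates 1 to 3. Rpl29 shares 47.9% of its windows and Gm7429 53.5% with another gene, so these values may split reads of 1 source, which was not tested. Rpl10l, a retained copy used in the male germ line, was lower (10.2, 11.9 and 45.9 RPKM) and shares 7.6% of its windows.

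Shared sequence was frequent in both directions. Where windows could be counted, 16 of 69 higher genes and 17 of 75 lower genes shared 50% or more of them, against 3.80% of all genes. Several lie side by side: 15 higher genes lay in 7 clusters with neighbours within 100 kb, and 15 lower genes in 5 clusters, which include the H2A genes on chromosome 13 and the Xlr and ferritin-like genes on the X. Low reads were a smaller matter. In 3 of 74 higher and 6 of 82 lower genes a library had 10 reads or fewer, and 63 and 54 had 100 or more in every library.

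Of 34 pluripotency genes, all at 2 RPKM, 1 met the rule, as lower (all genes at 2 RPKM 1.06%). Zfp42 (Rex1), a zinc-finger marker of the naive state, was 49.3 RPKM in CiPSC 6, 53.7 in CiPSC 11 and 135 in R1 2 (−1.38 ± 0.09). Both lines still held it at a level near that of Esrrb (50.3, 49.7 and 54.7). Zfp42 also varied among ESC, with 28.2, 30.4 and 4.80 RPKM in replicates 1 to 3, and with lengths divided out the lines lay inside that range. It rose by 4.12 ± 0.57 log2 units in ESC against MEF (SE, limma adjusted p = 0.00149).

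Among primed epiblast genes, which mark the later pluripotent state after implantation, 2 of 9 at 2 RPKM were lower (all genes at 2 RPKM 1.06%). Of the 2, Otx2 reached 2 RPKM in R1 2 alone. Over the 13 genes of the list in the table, 8 lay below R1 2 in both lines (61.5%, all genes 39.9%) and 2 above. Lefty2, the inhibitor that Nodal induces against itself, was 11.7 RPKM in CiPSC 6, 10.1 in CiPSC 11 and 39.6 in R1 2 (−1.77 ± 0.13). Its relative Lefty1 stayed outside the rule at 6.75, 6.43 and 13.4, and Nodal itself was 9.94, 9.70 and 10.4. The homeobox factor Otx2 was 0.287, 0.404 and 2.78 RPKM (−1.49 ± 0.09). Both Lefty2 and Otx2 rose in ESC against MEF (5.24 ± 0.34 and 2.22 ± 0.62, SE, limma adjusted p = 2.68e-05 and 0.0316), the call of Otx2 being lost without either CiPSC line. For both genes the lines lay below all 4 ESC libraries with lengths divided out. Otx2 was 8.67 and 7.83 RPKM in ESC replicates 1 and 2 and 0.470 in replicate 3.

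Epithelial genes met the rule in 4 of 19 cases at 2 RPKM, all higher (all genes at 2 RPKM 0.996%), and 3 of the 4 reached 2 RPKM in the lines alone. Over the whole list 20 of 31 genes lay above R1 2 in both lines (64.5%, all genes 47.7%). The tight junction protein Cldn6 was 5.89 RPKM in CiPSC 6, 4.56 in CiPSC 11 and 0.956 in R1 2 (1.66 ± 0.22). The 14-3-3 protein Sfn was 18.8, 18.0 and 7.41, the sorting adaptor Ap1m2 2.92, 2.64 and 0.727, and the polarity protein Crb3 2.24, 1.95 and 0.447. The adhesion molecule Cdh1, the defining gene of the list, was not higher (31.0, 28.7 and 37.9 RPKM). The median difference was 0.35 over the 19 genes at 2 RPKM and 0.11 over all 31 in the table. Of the 4, only Cldn6 was called in ESC against MEF (2.72 ± 0.31, SE, limma adjusted p = 0.000592). Elf3, an epithelial ETS factor outside the list and singled out after its values were seen, was 22.5, 17.7 and 8.25 RPKM and lay above all 4 ESC libraries with lengths divided out.

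Among imprinted genes, which are read from 1 parental copy, 2 of 16 at 2 RPKM were higher (all genes at 2 RPKM 0.996%) and none was lower. Both reached 2 RPKM in the lines alone. Peg3, a zinc-finger protein read from the paternal copy, was 6.40 RPKM in CiPSC 6, 6.15 in CiPSC 11 and 1.76 in R1 2 (1.40 ± 0.04), and Nnat was 4.80, 4.51 and 1.62 (1.11 ± 0.05). Over all 32 imprinted genes in the table, 20 lay above R1 2 in both lines (62.5%, all genes 47.7%) and 10 below (31.2%, all genes 39.9%). Of the 16, 10 lay above and 6 below. Ddc (2.38, 2.62 and 5.23) and H13 (1.06, 1.08 and 2.34) were among the latter. Peg3 fell in ESC against MEF (−1.54 ± 0.41, SE, limma adjusted p = 0.0272), a call lost without either CiPSC line, and Nnat did not pass (1.24 ± 0.62, limma adjusted p = 0.184).

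Atf4, a transcription factor of the response to amino acid shortage, was among the higher genes and is described with 3 others that were all singled out after their values were seen. It was 49.7 RPKM in CiPSC 6, 52.3 in CiPSC 11 and 21.1 in R1 2 (1.23 ± 0.05). Nupr1, a small stress-induced chromatin protein, was 15.1, 14.96 and 4.15, the glutamine transporter Slc1a5 18.1, 16.3 and 5.51, and Cth, which makes cysteine, 16.7, 18.6 and 6.90. The 2 lines matched closely in each of these 4 genes, and the rule itself fixed R1 2 as the lowest. Other genes that ATF4 is known to induce lay below R1 2 in both lines, namely the cystine transporter Slc7a11 (1.76, 1.62 and 2.36) and Sesn2 (12.1, 12.8 and 14.8), and the response as a whole was not tested. With lengths divided out both lines lay above all 4 ESC libraries for Atf4, Nupr1, Slc1a5 and Cth. Atf4 and Nupr1 fell in ESC against MEF (−1.06 ± 0.33 and −1.84 ± 0.53, SE, limma adjusted p = 0.0484 and 0.0347), but these calls were lost under 13 (Atf4) and 12 (Nupr1) of 17 alternatives.

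The promoter of Nupr1 is shown because it holds TTGCATCA, the reverse complement of TGATGCAA, the motif that ATF4 binds with C/EBP proteins. It lies at chr7:126625421-126625720 (− strand, GRCm38.p6, RefSeq), and the motif, in capitals, begins 110 bases before the start site.
Nupr1: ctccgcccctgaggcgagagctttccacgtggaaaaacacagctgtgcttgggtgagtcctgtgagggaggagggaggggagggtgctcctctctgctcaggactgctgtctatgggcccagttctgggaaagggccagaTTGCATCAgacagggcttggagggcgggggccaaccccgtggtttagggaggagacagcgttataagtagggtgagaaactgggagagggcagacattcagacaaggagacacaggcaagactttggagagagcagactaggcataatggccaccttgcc
On either strand the motif was found in 3 of 58 higher promoters (Sfn, Gm4027 and Nupr1), 0 of 59 lower promoters and 0.895% of all windows. These letters were not in the window of Atf4, and Cth and Slc1a5 were not searched.

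Glycolysis and hypoxia genes leaned upward with few members. Of 29 genes at 2 RPKM 2 were higher by the rule (all genes at 2 RPKM 0.996%), the glycolytic enzyme Eno1 (75.1, 71.5 and 26.7 RPKM, 1.42 ± 0.05) and Egln3 (5.06, 3.42 and 1.20). Egln3 reached 2 RPKM in the lines alone. Of the 29, 21 lay above R1 2 in both lines against 3 below (median 0.32). Over all 33 in the table, 23 lay above (69.7%, all genes 47.7%) and 3 below (9.09%, all genes 39.9%). Eno1 shares 67.9% of its windows with other genes. Metallothionein Mt1, which binds zinc, was higher (146, 137 and 66.7 RPKM), and the zinc transporter Slc30a2 was lower (0.921, 1.04 and 5.79). The interferon-induced membrane proteins split likewise, with Ifitm3 higher (52.9, 49.6 and 20.9) and Ifitm1 lower (7.46, 7.20 and 18.0). The immediate early factor Junb (2.24, 1.88 and 5.82) and the co-chaperone Bag3 (4.38, 4.31 and 11.6) were lower.

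Of the neural list the factor Olig2 was higher and the filament protein Nes was lower (0.508, 0.416 and 2.14 RPKM). Olig2 was 2.48 RPKM in CiPSC 6, 2.73 in CiPSC 11 and 0.00555 in R1 2, about 2 reads, and the ratio of line 6 to R1 2 was 447 with a 95% counting interval of 123 to 3699. Its neighbour Olig1 behaved alike (2.95, 2.75 and 0.0598). Both were at 0 or near 0 in ESC replicates 1 and 2 but at 5.33 and 11.0 RPKM in ESC replicate 3. The ESC libraries thus differed among themselves too, although replicate 3 and R1 2 share the line label R1. The neighbouring lipoprotein genes Apoe (168, 161 and 70.7 RPKM) and Apoc2 (2.11, 2.11 and 0.041) were higher too. Fabp3, a fatty acid carrier on the trophoblast list, was 87.4, 73.3 and 27.6 RPKM.

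The other genes with large differences at 10 RPKM or more belong to no list. Higher were Pigp (14.5, 12.7 and 3.16 RPKM), a subunit of the enzyme that starts GPI membrane anchors, the glycogen phosphorylase Pygb (11.4, 11.0 and 2.63), D4Wsu53e (11.4, 9.12 and 2.48) and the clock-linked repressor Bhlhe40 (12.1, 7.63 and 2.83). Lower was the sodium pump regulator Fxyd6 (1.20, 1.07 and 12.8, −2.69 ± 0.07). None of these 5 passed ESC against MEF (limma adjusted p = 0.0971 to 0.99, 2 at an unadjusted p under 0.05).

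Cholesterol and fatty acid synthesis genes did not meet the rule but leaned together. Of 22 genes at 2 RPKM, 21 lay below R1 2 in both lines and 0 above (median −0.41), where 3316 of all 7728 such genes lay below and 3682 above. The desaturases Scd2 (25.7, 21.6 and 47.2 RPKM) and Scd1 (6.37, 5.22 and 11.6) came nearest to the threshold, with line 11 past it and line 6 short of it. The regulator Srebf2 (21.9, 19.8 and 21.8) was the exception. Proliferation genes (0 of 19, median 0.03) and p53 and senescence genes (0 of 20, median −0.13) had no member. The lists of primitive endoderm (0 of 6), macrophage and blood (0 of 3), endothelial (0 of 3) and Hox and patterning genes (0 of 1) had none either, and no muscle gene reached 2 RPKM.

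ESC against MEF compares libraries the rule did not use, but the model takes its spread from all groups, the 2 CiPSC lines included. With either line left out the CiPSC add no spread, and 48 of the 56 calls were kept, while Atf4, Car2, Id3, Junb, Nes, Nupr1, Otx2 and Peg3 lost theirs. Of the 77 higher genes, all tested, 17 rose in ESC (22.1%, background 7.95%) and 6 fell (7.79%, background 7.97%). Of the 75 lower genes tested, 14 rose (18.7%) and 19 fell (25.3%). Among the higher genes that rose were Mylpf, a muscle-type myosin light chain (3.91 ± 0.54), Gm4340 and Elf3 (3.19 ± 0.20), and among those that fell were Fstl1, Ifitm3 (−3.13 ± 0.42) and the membrane protein Marveld1 (−2.75 ± 0.39; SE, limma adjusted p = 2.45e-05 to 0.00155 over Mylpf, Elf3, Fstl1, Ifitm3 and Marveld1). The lower genes that rose included the releasing hormone Trh (5.65 ± 0.64), Lefty2 and Rpl10l (4.99 ± 0.37; limma adjusted p = 5.86e-05 for Rpl10l and 0.000534 for Trh). The 19 that fell included 11 of the 12 matrix and contractile genes. Within the libraries that write 0 (replicates 1 and 2 of ESC and MEF) and within those that write 0.001 (replicate 3 of each, 1 library a side), 11 of those 12 were lower in ESC in both, as were 29.8% of all tested genes. So were 34 of the 35 tested genes of the matrix list and 22 of the 26 of the contractile list, and nothing is read from the 11. Over all members the 2 sets of libraries pointed in opposite directions for 16 of 77 higher genes (20.8%) and 10 of 75 lower genes (13.3%), against 20.8% of all tested genes. Of the 56 calls 35 were kept under all 17 alternatives, none was reversed, and 12, among them Id3, Otx2, D1Pas1, Peg3 and Zscan4b, were lost under 6 or more.

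**Figure D4:**
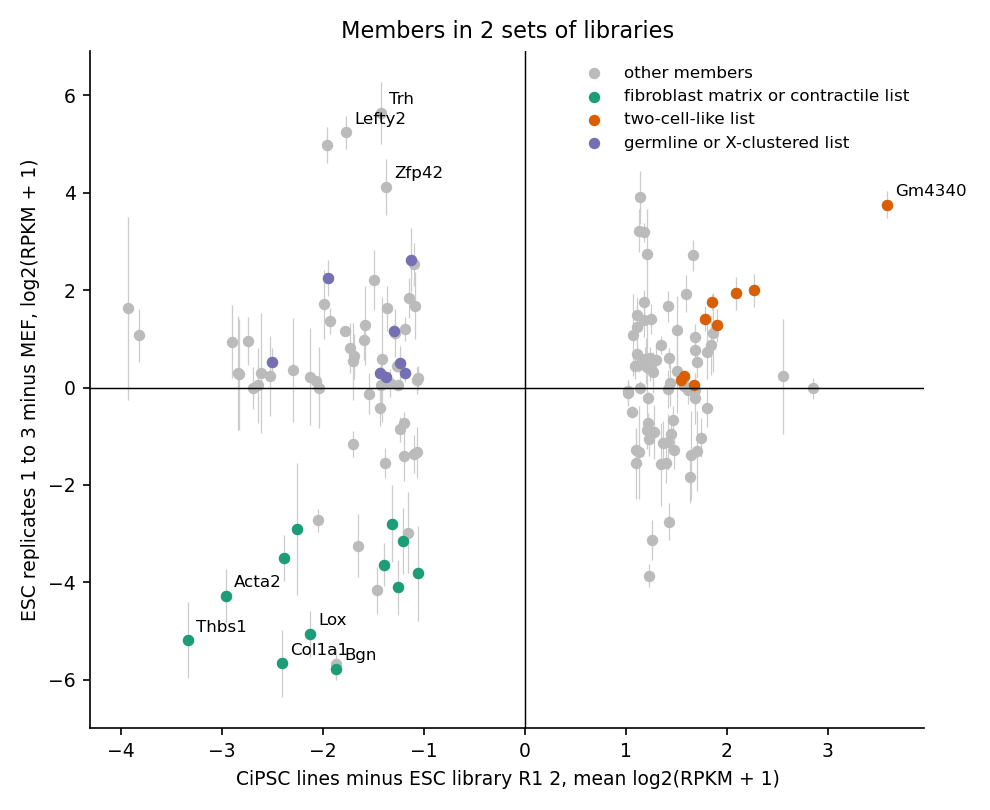
Each tested gene of the 159 by its difference between the CiPSC lines and R1 2 (x axis, mean log2(RPKM + 1)) and its log2 change in ESC replicates 1 to 3 against MEF (y axis, limma, bars ± 1 SE); x values were used to choose the genes and y values were not, although the SE draws on all groups. Matrix and contractile genes (green) sit at the lower left, 2-cell-like genes (orange) at or above 0 on the right, and Zfp42, Lefty2 and Trh at the upper left.

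Against all 4 ESC libraries with gene lengths divided out, 24 of the 69 higher genes with a length lay above every ESC library in both lines, and 36 of the 75 lower genes lay below every one. None of these genes could lie beyond all 4 on the opposite side, because R1 2 is among them and the rule fixed its side. Nothing is read from that absence. Over all 13671 genes with a length the counts were 1278 above and 2132 below. R1 2 was the lowest of the 4 ESC libraries for 37 of the higher genes (53.6%, all genes 35.8%) and the highest for 36 of the lower genes (48%, all genes 18.4%), a lean that the rule itself favours, since it chose genes low or high in R1 2. This comparison crosses the 2 length scales.

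The model over all 13 libraries also gave CiPSC against ESC, where with a term for the length scale the contrast rests on the same 3 libraries and takes its spread from the other groups. It called 13 genes higher (0.122%) and 4 lower (0.0376%), 11 of them among the 159 genes. They were Gm4340 (3.58 ± 0.42, SE), Ipp (2.85 ± 0.34), Zscan4d, Gm2022, Gm5662, BC080695 and Apoc2 on the higher side, and Gm364, Slc30a2, Ppp1r14d and Xlr3c on the lower (limma adjusted p = 0.000715 to 0.045). The rule used this contrast, so nothing is read from the overlap. The 17 calls became 3 to 50 under other settings and 10 to 46 with 1 library left out, the 46 without ESC replicate 3.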

How the data were processed

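Total RNA of 13 mouse libraries had been sequenced, and the authors deposited 1 table of RPKM per gene, per the file headers. Per the submitters' processing notes, reads were handled with TopHat 1.3.0 and mm9; counting tool and gene models: not given in the sources used here. After 8 rows sharing 1 symbol were left out of 15184, 15176 genes remained. RPKM follow exonic length in 3 libraries and gene span in 10. In the 3, ratios between libraries are ratios of whole reads (94.5% of the 5727 genes under 1 RPKM were met by 300 reads or fewer, within 0.02 reads), which gave depths and reads per gene; counting intervals are exact and leave out all other error.

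The analysis used log2(RPKM + 1). The 10647 genes that reached 1 RPKM in 2 libraries entered limma 3.58.1 in R 4.3.3, tested on simulated data, with group coefficients, a length-scale term, a variance trend and Benjamini-Hochberg adjustment (6 residual and 2.58 prior degrees of freedom). Calls needed adjusted p under 0.05 and a log2 change of 1. Genes, 25 lists and tests were chosen with earlier results of these data known. Named were the markers, the 12 largest differences per direction at 10 RPKM, up to 4 genes per list, the genes at the threshold and 4 core factors; further genes were named after their values were seen, and the values of some genes that the counts include are not reported here. Promoters (117 of the 159 genes matched) and chromosomes are from RefSeq, GRCm38.p6. Alternatives were pseudocounts, filters, scalings, model terms and left-out libraries.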

Additional observations from a re-analysis of the deposited data

How the results depend on the processing

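The rule kept 275 genes (136 higher, 139 lower) with a pseudocount of 0.1 RPKM, 94 (45 and 49) when the higher value had to reach 5 RPKM, 24 (4 and 20) at a difference of 2 log2 units, and 60 (24 and 36) when both lines had to lie outside all 4 ESC libraries with lengths divided out. All 159 genes were among the 275, the other 3 counts are subsets of the 159, and the alternatives left (a pseudocount of 0.5, a minimum of 1 RPKM and 2 scalings) moved the count by less than 1.5 times. Without 1 CiPSC line it ranged from 178 to 203 genes (80 to 97 higher, 98 to 106 lower). None of 378 values of 63 named genes under other pseudocounts, scalings or lines turned in direction, but the rule fixed this in advance. A pseudocount keeps the sign, each line alone met the threshold, and the scaling factors were only 0.992 to 1.012. Nothing is read from that count. For CiPSC against ESC limma called 17 genes, but 50 without the filter on low values, 9 without the length-scale term, 9 without the trend, 3 with a pseudocount of 0.1 RPKM and 28 after quantile normalization. Leaving out 1 library gave 10 to 46, the highest without ESC replicate 3. ESC against MEF called 56 of the 159 genes, 43 to 59 with 1 library left out and 49 to 71 under the other settings. Replicate numbers 1 and 2 did not pair the libraries (correlations of deviations −0.0673 to 0.0826). With them as a replicate block 50 genes were called, against 58 in the same libraries without the block, an alternative chosen after seeing the data. The causes of these changes were not tested. The CiPSC lines have 1 ESC library on their length scale.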
